A study of Sus scrofa domesticus with 34 samples.

Results

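Astrocytes are the glial cells that take up glutamate and potassium after synaptic activity, move water at the surface of blood vessels and pass metabolites to neurons. They are joined by gap junctions into networks, and their transporter equipment differs between brain regions. Genes that mark these cells, GFAP, AQP4, SLC1A2, SLC1A3, GJA1 and ALDH1L1, were followed in 34 pig libraries that are labelled muscle. They were chosen by name and matched to Ensembl identifiers by symbol. All 6 of 6 were found among the 31907 genes of the count files, and all 6 were among the 13974 genes that passed the filter on low counts.

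The libraries were made from pigs (Sus scrofa domesticus), 1 library per animal by the counts of individuals in the series description, by sequencing a tag at the 3′ end of each polyadenylated transcript (QuantSeq). The animals received vitamin D3 (cholecalciferol), its hydroxylated form calcidiol (25(OH)D), or both. Doses are in IU per kg of feed, for growing and then for finishing pigs. Increased cholecalciferol meant 3000, later 2500 IU (n = 10, of which 6 were females). The combination paired cholecalciferol at 2000, later 1500 IU, with 25(OH)D at 1000 IU throughout (n = 8). In the 25(OH)D diet, 25(OH)D alone was fed at 2000, later 1500 IU (n = 8). Standard cholecalciferol, the control, supplied 2000, later 1500 IU (n = 8). In all groups but the first, 4 pigs were females, and the 16 males over all groups were castrated. The labels state no age, breed or name of the muscle.

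Several library properties bear on the results below. Total gene counts ran from 1.34 to 30.4 M, and they stepped with the numbers of the deposited files: 4.08 to 13.2 M in file numbers 1 to 24, 16.8 to 30.4 M in 25 to 29 and 1.34 to 2.69 M in 30 to 34. The last run held 4 combination libraries and 1 25(OH)D library. In its 4 libraries labelled female, the 11 genes called between the sexes in these same 34 libraries summed to 87.4 to 171 CPM. The sum was 122 to 394 CPM in the 16 castrated males and 7.92 to 74.0 CPM in the other 14 females. These genes were chosen by that contrast and summed whatever their direction. The gap between castrated males and the other females was therefore partly set by the choice. Whether the 4 labels are wrong was not tested. For the pairs with the combination and for sex, values without file numbers 30 to 34 are given below. Transcripts of neural cells and of muscle were present together, since the neuron list summed to 5546 to 10076 CPM and the skeletal muscle list to 1104 to 7325 CPM. Schwann cell genes, which would mark the glia of nerves within muscle, summed to only 0.565 to 7.45 CPM. In such bulk libraries, fewer cells of a type and less RNA per cell cannot be told apart.

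Of the 6 genes, 5 were abundant in all 34 libraries and ALDH1L1 was close to 0. GFAP, which encodes the intermediate filament protein of astrocytes, had 811 CPM in the lowest library, a median of 1073 CPM and 3924 CPM in the highest. CPM are counts per 1 M counts on TMM-scaled library sizes. Because a tag marks the end of a transcript once, they are not divided by transcript length. The level of a gene still depends on how well its 3′ end is annotated, and 16.4 to 29.9% of reads lay outside genes, so that the order of genes below is an order of counted tags. With a mean of 1196 ± 551 CPM (SD, n = 34), GFAP ranked 42 among all genes. AQP4, the water channel of astrocyte endfeet at vessels, ranked 97 with 718 ± 180 CPM and ran from 414 to 1242 CPM around a median of 665 CPM.

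The glutamate transporters and the gap junction gene were lower but detected in every library. SLC1A3 encodes GLAST, the glutamate transporter that in rodents is enriched in the Bergmann glia of the cerebellum, and had a lowest, median and highest level of 129, 221 and 375 CPM. GJA1, which encodes the gap junction protein connexin 43, ran from 53.7 to 298 CPM around a median of 165 CPM. SLC1A2 encodes GLT-1, which in rodents carries most glutamate uptake in the forebrain, and ran from 29.3 to 283 CPM around a median of 131 CPM. Its highest library held 9.66 times the level of its lowest, the widest range among the 5 abundant genes. By mean level the order was GFAP, AQP4, SLC1A3 (224 ± 66.8 CPM), GJA1 (162 ± 56.6 CPM) and SLC1A2 (142 ± 72.9 CPM, SD, n = 34 each). SLC1A3, GJA1 and SLC1A2 were neighbours whose means lay within 1 SD of the next.

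ALDH1L1, which encodes a folate enzyme widely used as a marker of all astrocytes, ranked 13838 with 1.09 ± 0.747 CPM (SD, n = 34). With 0 to 40 reads per library, it was at 0 in 3 libraries, 2 from the 25(OH)D diet and 1 from the standard diet. Its level thus stood apart from those of the other 5 genes. ALDOC, a glycolytic enzyme gene of astrocytes on the metabolism list below, was also near 0 (mean 0.185 CPM). Why these genes were near 0 was not tested, and changes of ALDH1L1 are given with wide intervals below.

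**Figure D1:**
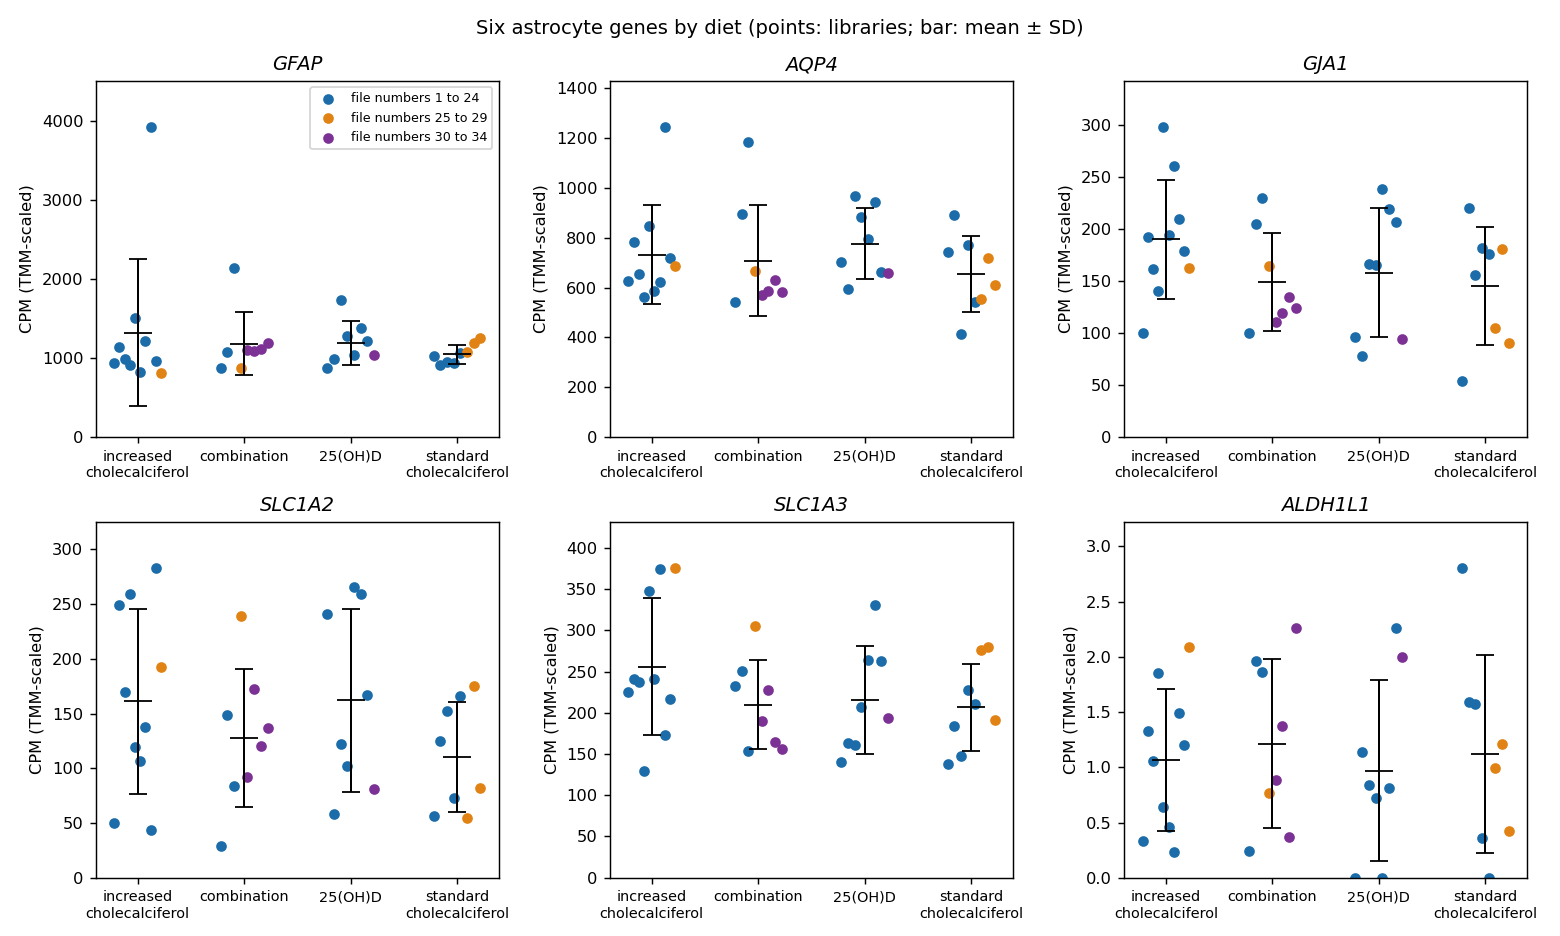
Level in CPM (vertical axis, starting at 0) of each astrocyte gene in every library, grouped by diet; points are libraries coloured by run of file numbers, and bars are mean ± SD (n = 10, 8, 8 and 8). The diets overlap for all 6 genes, and 1 library of increased cholecalciferol stands at 3924 CPM of GFAP.

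The first question of the design was whether the dose of cholecalciferol or the form of vitamin D changed expression. For the astrocyte genes no diet could be told from another. GFAP had a lowest, median and highest level of 811, 976 and 3924 CPM with increased cholecalciferol, of 873, 1099 and 2139 CPM with the combination, of 871, 1125 and 1732 CPM with 25(OH)D, and of 915, 1046 and 1255 CPM with standard cholecalciferol. The ranges overlapped and the medians lay close, so that the diets differed mainly in how far their highest library reached. The SD of GFAP was 937 CPM with increased cholecalciferol, 402 CPM with the combination, 275 CPM with 25(OH)D and 122 CPM with standard cholecalciferol.

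AQP4 had a lowest, median and highest level of 561, 671 and 1242 CPM with increased cholecalciferol, of 541, 608 and 1183 CPM with the combination, of 595, 748 and 967 CPM with 25(OH)D, and of 414, 665 and 892 CPM with standard cholecalciferol. SLC1A2 had 43.2, 153 and 283 CPM with increased cholecalciferol, 29.3, 129 and 239 CPM with the combination, 58.3, 145 and 266 CPM with 25(OH)D, and 54.6, 104 and 175 CPM with standard cholecalciferol. For both genes the ranges of all diets overlapped, and the highest SLC1A2 level of the standard diet lay below the highest of the other 3.

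SLC1A3 had a lowest, median and highest level of 129, 239 and 375 CPM with increased cholecalciferol, 154, 208 and 305 CPM with the combination, 140, 201 and 331 CPM with 25(OH)D, and 137, 200 and 279 CPM with standard cholecalciferol. GJA1 had 100, 186 and 298 CPM with increased cholecalciferol, 99.6, 129 and 230 CPM with the combination, 78.1, 166 and 239 CPM with 25(OH)D, and 53.7, 166 and 221 CPM with standard cholecalciferol. ALDH1L1 had medians of 0.824 to 1.13 CPM over the 4 diets. For each of these genes the diets overlapped over most of their range.

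Tests across all genes found no difference. In edgeR's quasi-likelihood test with diet and sex in the model, 0 of the 6 genes passed at a Benjamini-Hochberg adjusted p below 0.05 in any of the 6 pairs of diets. The background was the same, with 0% of the 13974 genes called in each pair. Of the 36 combinations of gene and pair, 0 had an unadjusted p below 0.05, the smallest was 0.113 (GJA1, increased against standard cholecalciferol) and the smallest adjusted p was 0.659. Over all genes, 1086 reached an unadjusted p below 0.05 for increased against standard cholecalciferol, 607 for the combination against standard, 452 for 25(OH)D against standard, 578 for the combination against increased, 1673 for 25(OH)D against increased and 1058 for 25(OH)D against the combination, where 699 would be expected by chance. DESeq2 and limma-voom also called 0 genes in every pair. Pairs with a diet in common share its libraries, the 3 pairs against standard cholecalciferol its 8, and are not independent of each other.

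Cholecalciferol dose was compared by increased against standard cholecalciferol. On the log2 scale SLC1A2 differed by 0.57 (SE 0.36, 95% interval −0.15 to 1.29), GJA1 by 0.39 (−0.10 to 0.88), GFAP by 0.32 (−0.11 to 0.76), SLC1A3 by 0.28 (−0.10 to 0.66), AQP4 by 0.16 (−0.17 to 0.48) and ALDH1L1 by −0.09 (−1.21 to 1.04). The median of the 6 was 0.30, beside 0.01 over all genes tested. The value of GFAP rested on 1 library: without increased cholecalciferol replicate 8, the library highest in GFAP, it was −0.00 (SE 0.15), and AQP4 was at 0.06 (SE 0.15).

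The 2 forms of vitamin D were compared at matched doses in 2 pairs. For 25(OH)D against standard cholecalciferol, the log2 difference was 0.59 for SLC1A2 (SE 0.37, 95% interval −0.16 to 1.34), 0.25 for AQP4 (−0.10 to 0.59), 0.18 for GFAP (−0.28 to 0.64), 0.13 for GJA1 (−0.37 to 0.64), 0.06 for SLC1A3 (−0.33 to 0.46) and −0.33 for ALDH1L1 (−1.59 to 0.94). For the combination against increased cholecalciferol, where the added 1000 IU was either form, it was −0.34 for GJA1 (−0.83 to 0.15), −0.32 for SLC1A2 (−1.03 to 0.40), −0.24 for SLC1A3 (−0.62 to 0.14), −0.14 for GFAP (−0.58 to 0.29), −0.04 for AQP4 (−0.37 to 0.28) and 0.13 for ALDH1L1 (−1.11 to 1.37). A 2-fold difference lay outside the interval for AQP4, GFAP, GJA1 and SLC1A3 in both pairs and inside it for SLC1A2 and ALDH1L1. These tests do not show that the forms act alike. Without increased cholecalciferol replicate 8, the combination differed from increased cholecalciferol by 0.19 for GFAP (SE 0.15) and by 0.06 for AQP4 (SE 0.15), so that this library set the sign of both.

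In the other pairs both dose and form differed, or 25(OH)D was added to the standard diet. Against standard cholecalciferol, the combination differed by at most 0.25 in size (SLC1A2, 95% interval −0.50 to 1.01). GFAP was at 0.18 and AQP4 at 0.12, and without combination replicate 3 at 0.04 (SE 0.23) and −0.01 (SE 0.16). Against increased cholecalciferol, 25(OH)D differed by −0.26 for GJA1 (−0.74 to 0.23), −0.22 for SLC1A3 (−0.60 to 0.16), −0.14 for GFAP, 0.09 for AQP4 and 0.02 for SLC1A2. Without increased cholecalciferol replicate 8, GFAP was at 0.20 (SE 0.15) and AQP4 at 0.20 (SE 0.15), so that this library set the sign for GFAP. Against the combination, 25(OH)D differed by 0.34 for SLC1A2 (−0.42 to 1.09) and by 0.00 for GFAP (−0.46 to 0.46), or 0.15 (SE 0.23) without combination replicate 3. Over all 36 combinations, 25 intervals lay wholly within a 2-fold change in either direction. Of 43 further astrocyte genes tested, described below, 0 were called in any pair of diets. Without file numbers 30 to 34, which hold 4 of the 8 combination libraries, 0 of the 6 genes was called either.

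The values of the combination moved without that run. Against standard cholecalciferol it then differed by 0.30 for AQP4 (SE 0.21), 0.27 for GJA1 (SE 0.31), 0.24 for SLC1A3 (SE 0.25), 0.16 for SLC1A2 (SE 0.47), 0.15 for GFAP (SE 0.30) and −0.06 for ALDH1L1 (SE 0.79). Against increased cholecalciferol it differed by −0.41 for SLC1A2 (SE 0.47), −0.17 for GFAP, −0.10 for GJA1, −0.04 for SLC1A3, 0.14 for AQP4 and 0.04 for ALDH1L1. The 25(OH)D diet then differed from the combination by 0.51 for SLC1A2 (SE 0.50), 0.03 for GFAP, −0.03 for AQP4, −0.07 for GJA1, −0.15 for SLC1A3 and −0.44 for ALDH1L1. AQP4 thus changed sign in 2 of these pairs, SLC1A3 and GJA1 in 1 and ALDH1L1 in 1, each within its error.

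**Figure D2:**
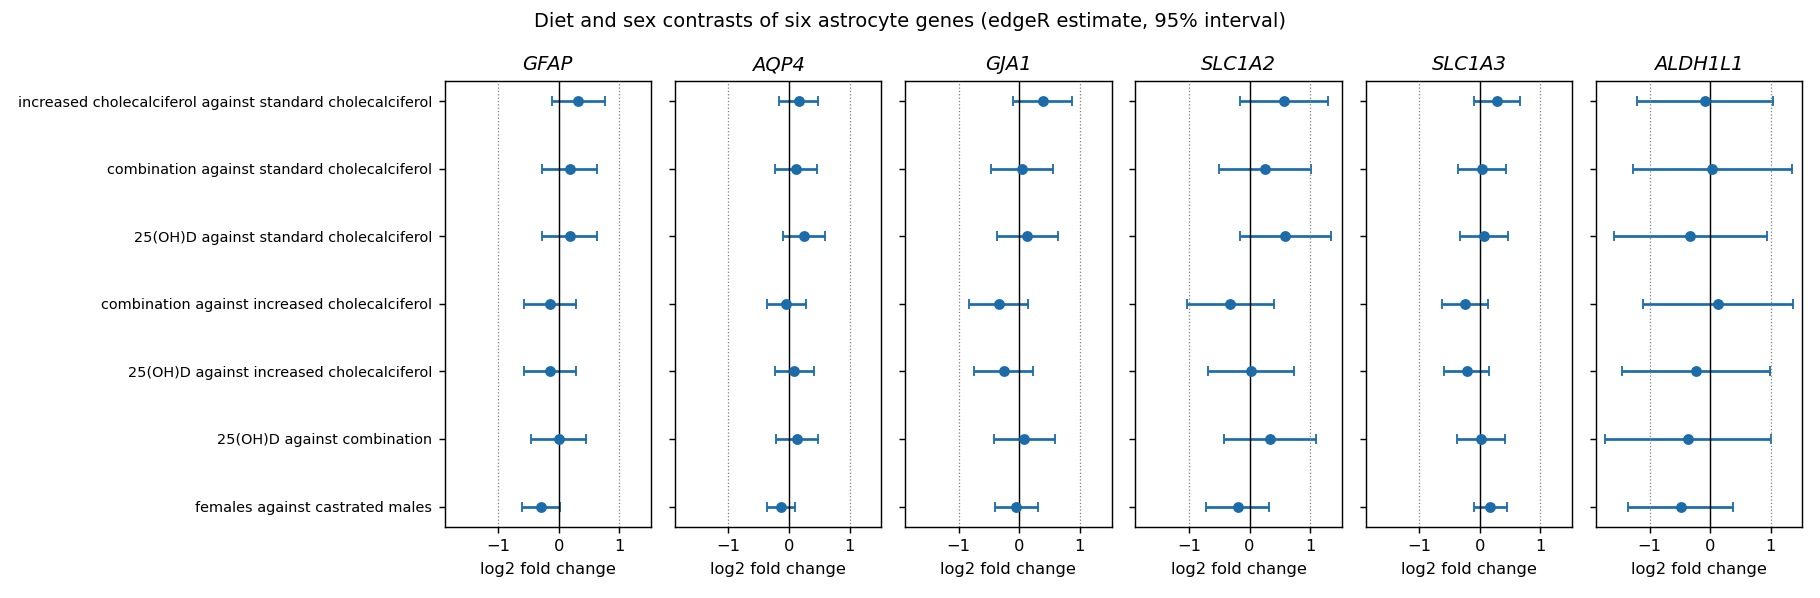
Log2 fold change (horizontal axis) of each astrocyte gene for the 6 pairs of diets and for females against castrated males; points are edgeR estimates, bars 95% intervals, and dotted lines mark a 2-fold change. Every interval includes 0, and those of ALDH1L1 are the widest.

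Sex made no difference that passed. GFAP had a lowest, median and highest level of 829, 1054 and 1514 CPM in 18 females, against 811, 1163 and 3924 CPM in 16 castrated males. Its log2 difference was −0.29 (SE 0.15, edgeR unadjusted p = 0.0696, adjusted p = 0.743), −0.07 (SE 0.11) without increased cholecalciferol replicate 8, and 0.02 without both castrated males highest in GFAP. The other 5 genes differed by −0.49 (ALDH1L1, SE 0.43) to 0.17 (SLC1A3, SE 0.14), and 0 of the 6 were called where 0.0787% of all genes were, that is 11 genes. File numbers 30 to 34 hold the 4 females whose range of summed CPM overlapped that of the castrated males. Without this run the differences were −0.31 for GFAP (SE 0.19), −0.09 for AQP4, −0.19 for SLC1A2 and 0.23 for SLC1A3 (SE 0.15). GJA1 was then at 0.05 (SE 0.20) and ALDH1L1 at −0.51 (SE 0.49), and 0 were called. For the interaction of diet and sex, 0 of the 6 passed with 0% of all genes called, 383 genes had an unadjusted p below 0.05, and the smallest unadjusted p of the 6 was 0.568 (ALDH1L1, edgeR, adjusted p = 1.00).

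The libraries also differed in transcripts of brain regions. A regional score was formed as the mean log2 CPM of CBLN1 and CBLN3, which encode cerebellins made by cerebellar granule cells, minus that of TBR1 and FEZF2, transcription factor genes of deep layers of the cerebral cortex. It ran from 2.39 to 9.59 with a median of 3.74. Neighbouring libraries were at most 0.70 apart. Whether the libraries form separate clusters was not tested. The score ran from 2.39 to 9.36 with increased and from 2.68 to 9.59 with standard cholecalciferol. With the combination it was 3.09 to 8.69, and with 25(OH)D 2.98 to 7.81. These ranges overlapped, but no combination or 25(OH)D library lay below 2.98 and no 25(OH)D library above 7.81. In file numbers 30 to 34 the score was 5.23 to 6.54, so that this run of low total counts filled part of the middle of the series. The slopes below are log2 changes per unit of the score, with diet and sex in the model.

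SLC1A2 fell along the score and had the steepest slope of the 6 genes. From the lowest score upwards, the first 5 libraries had 107, 138, 166, 169 and 152 CPM of SLC1A2. The last 5, with scores of 7.82 to 9.59, had 43.2, 54.6, 29.3, 50.4 and 56.1 CPM. The lowest level of all, 29.3 CPM, was in combination replicate 1 at a score of 8.69, and the highest, 283 CPM, in increased cholecalciferol replicate 9 at 4.06. Between scores of 2.39 and 5.27 the gene varied widely, from 72.9 to 283 CPM, and the fall was in the libraries above. The slope was −0.29 (SE 0.05, 95% interval −0.38 to −0.19, edgeR adjusted p = 3.13e-06).

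GJA1, the gap junction gene, fell as well. The first 5 libraries had 194, 261, 176, 162 and 156 CPM of GJA1, and the last 5 had 210, 104, 99.6, 100 and 53.7 CPM. Its lowest level was in standard cholecalciferol replicate 1, the library with the highest score. Some libraries lay apart from this order: increased cholecalciferol replicate 8 had 210 CPM at a score of 7.82, and combination replicate 3 had 230 CPM at 6.07. The slope was −0.17 (SE 0.03, 95% interval −0.23 to −0.11, edgeR adjusted p = 2.91e-05). Without these 2 libraries it was −0.21 (edgeR adjusted p = 5.72e-08). They were left out after the data were seen and lay against the slope, so that a steeper value had to follow. In each of 47 alternatives both genes stayed called in the same direction, with slopes of −0.31 to −0.24 for SLC1A2 and −0.21 to −0.12 for GJA1.

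These 2 of 6 genes stand beside a background in which 37.7% of all genes tested were called along the score, 19.3% higher and 18.3% lower. The share of called members was therefore close to that of all genes. The median slope of the members was −0.03, beside 0.00 over all genes, and their slopes ran from −0.29 to 0.07.

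The other glutamate transporter, SLC1A3, lay at the threshold. The first 5 libraries had 241, 374, 210, 237 and 148 CPM, and the last 5 had 173, 276, 232, 225 and 137 CPM, so that both ends overlapped. Its slope was −0.07 (SE 0.03, 95% interval −0.13 to −0.01, unadjusted p = 0.0216, adjusted p = 0.0556). Over the alternatives the adjusted p ran from 0.016 to 0.549 and the slope from −0.10 to −0.02. It passed with DESeq2 (adjusted p = 0.0378), limma-voom (0.0491), DESeq2 size factors (0.0456), a term for file numbers (0.0186), no diet or sex in the model (0.0497), a score of CBLN3 and TBR1 alone (0.0308) and the oligodendrocyte score added (0.016). It also passed when 1 of 9 libraries was left out (25(OH)D replicate 3, standard replicates 3, 5 and 6, increased replicates 3, 4, 5 and 6, and combination replicate 1), with a slope of −0.09 to −0.07. It was at −0.02 with scaling by total counts alone. The ratio of SLC1A2 to SLC1A3 ran from 0.126 in combination replicate 1, at a score of 8.69, to 2.01 in increased cholecalciferol replicate 4, at 3.81, with a median of 0.610. Whether the slopes of the 2 transporters differ was not tested.

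GFAP, AQP4 and ALDH1L1 had no slope that passed. For GFAP the first 5 libraries had 829, 1221, 1070, 989 and 947 CPM and the last 5 had 3924, 1075, 873, 944 and 1022 CPM, which apart from 1 library is a like range at both ends. Its slope was 0.06 (SE 0.03, adjusted p = 0.139). Without increased cholecalciferol replicate 8 it was −0.01 (SE 0.03, adjusted p = 0.877), and without combination replicate 3 as well −0.02 (SE 0.02, adjusted p = 0.563). GFAP was called higher along the score under 2 alternatives that keep both libraries, with the oligodendrocyte score added (0.11, adjusted p = 0.00532) and with scaling by total counts alone (0.11, adjusted p = 0.00765). AQP4 had a slope of 0.00 (SE 0.03, 95% interval −0.05 to 0.06, adjusted p = 0.973), and −0.04 without these libraries (adjusted p = 0.175). ALDH1L1 had a slope of 0.07 (SE 0.10, 95% interval −0.14 to 0.27, adjusted p = 0.634).

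**Figure D3:**
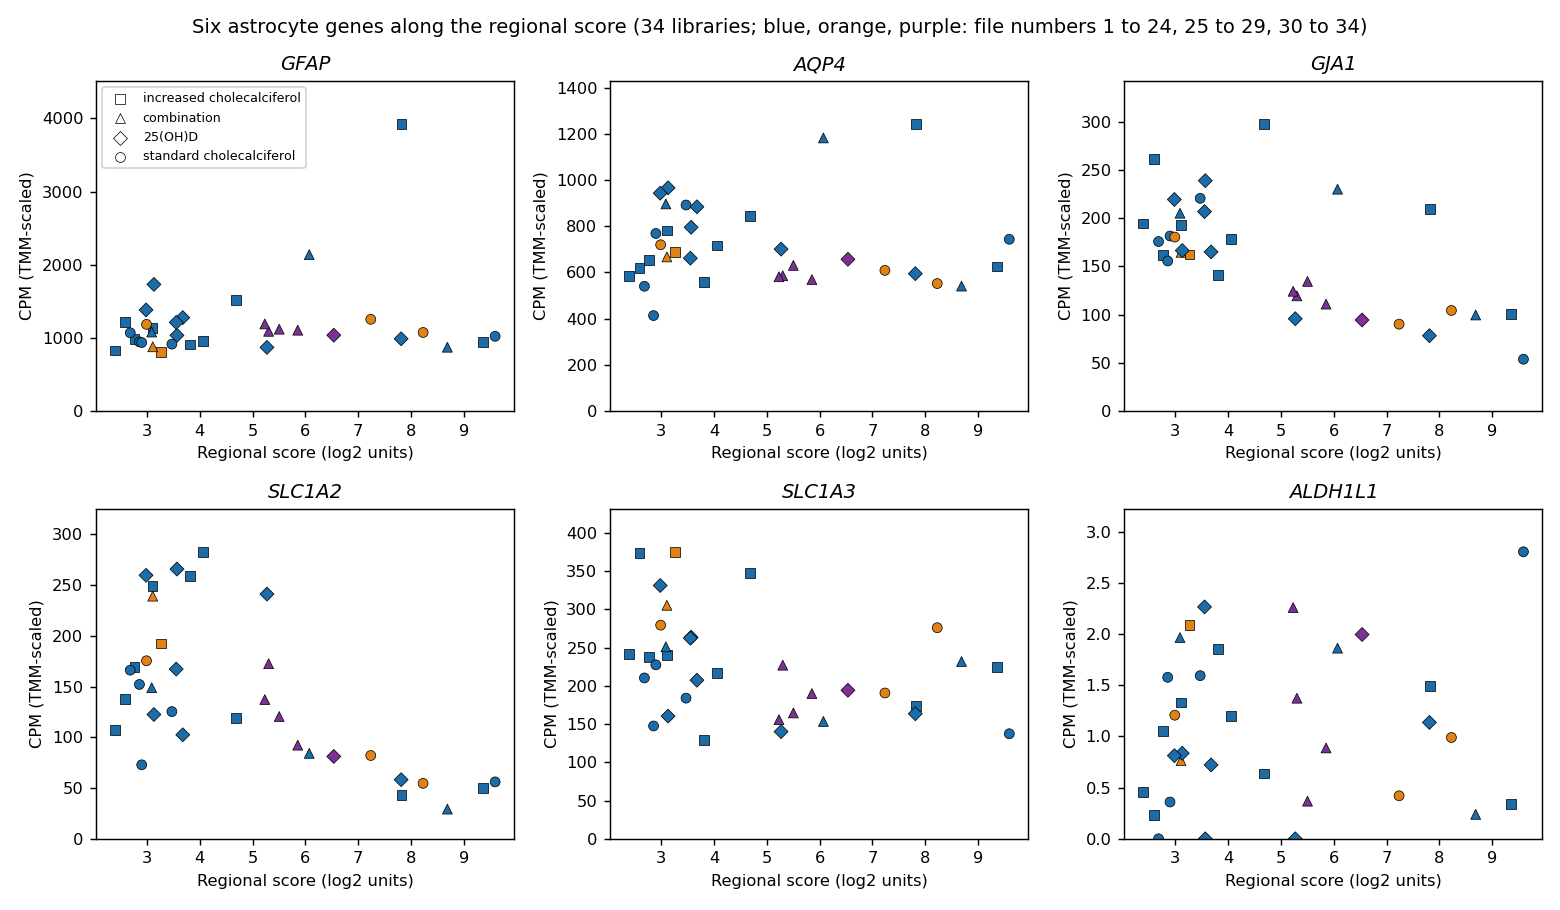
Level in CPM (vertical axis, starting at 0) of each astrocyte gene against the regional score in log2 units (horizontal axis), 1 point per library, with the shape for diet and the colour for the run of file numbers. SLC1A2 and GJA1 are low at high scores, whereas AQP4 is spread over a like range throughout and GFAP stands out in 2 libraries. SLC1A3 overlaps between both ends, with its highest levels, 375 and 374 CPM, at scores of 3.27 and 2.59.

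Further astrocyte genes gave the setting of these slopes. Together, 5 lists held 51 genes, of which 45 were matched and 43 tested. Along the regional score 6 were called higher, 17 lower and 20 were not called, beside 19.3% of all genes higher and 18.3% lower. The median slope was −0.05, beside 0.00 over all genes. All 6 tested genes of astrocyte metabolism fell. Among them were MT3, a metallothionein gene (−0.19, SE 0.02, mean 1823 CPM), ACSBG1, of fatty acid activation (−0.15, SE 0.02), PPP1R3C, of glycogen synthesis (−0.16, SE 0.02), and SLC6A11, a GABA transporter gene (−0.20, SE 0.04). Of 9 genes of secreted proteins 5 fell and 0 rose, among them CLU, which encodes clusterin (−0.16, SE 0.02), MFGE8, of phagocytosis (−0.23, SE 0.03), and the matrix protein genes SPARC (−0.17, SE 0.02) and SPARCL1 (−0.19, SE 0.03).

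Genes of ion and water handling moved in both directions, with 2 higher, 3 lower and 1 not called. SLC4A4, a bicarbonate transporter gene, rose (0.15, SE 0.02), as did ATP1B2, a sodium pump subunit gene named after its value was seen (0.09, SE 0.03). Those that fell included KCNJ10, which encodes the potassium channel Kir4.1 (−0.32, SE 0.07), and HEPACAM, of cell adhesion (−0.06, SE 0.02). Among 11 regulators, 2 rose and 2 fell, a share called close to the 37.7% of all genes. The transcription factor gene NFIA (0.12, SE 0.02) and the receptor gene GPR37L1 (0.09, SE 0.03) were higher. The receptor gene NTSR2 (−0.22, SE 0.04) and the Notch target gene HES5 (−0.31, SE 0.08) were lower.

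Of 11 tested genes known to rise in reactive astrocytes, 2 rose, 1 fell and 8 were not called. The share called was below the 37.7% of all genes. LCN2, which encodes lipocalin 2, had a slope of 0.39 (SE 0.03), and CD44, a hyaluronan receptor gene, of 0.22 (SE 0.05). VIM, which encodes vimentin, a filament partner of GFAP, fell (−0.27, SE 0.06), and STAT3, a transcription factor gene, was at 0.08 (SE 0.04, edgeR adjusted p = 0.0796). CHI3L1 of this list was at 0 in every library. Several genes of these lists are also expressed by other cells, CLU, SPARC and CD44 among them.

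**Figure D4:**
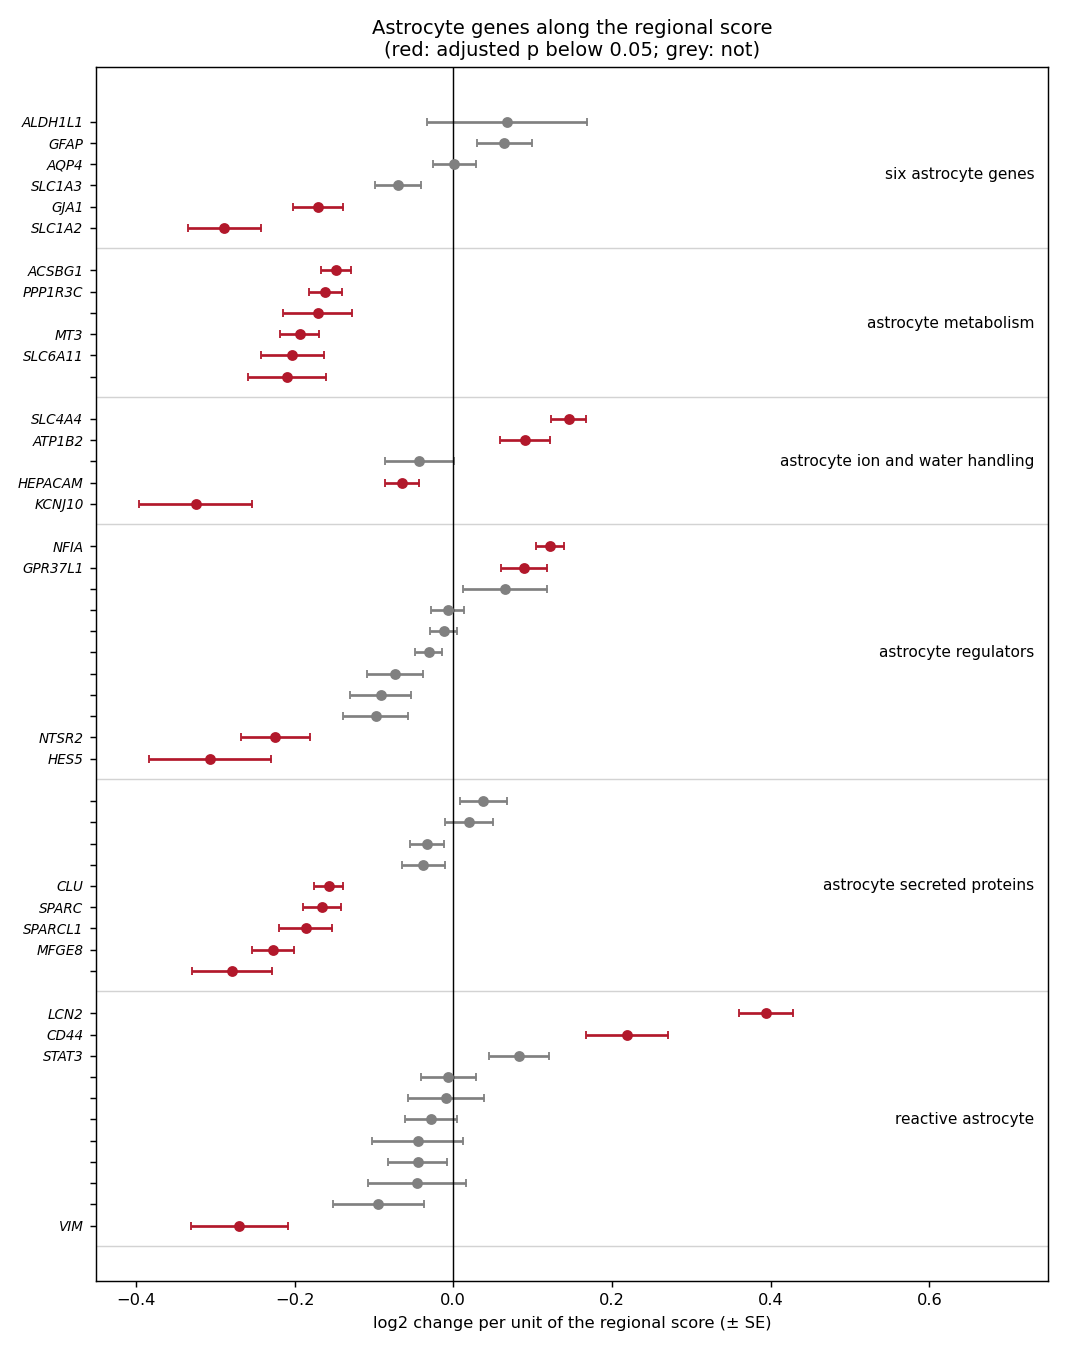
Slope along the regional score (horizontal axis, log2 change per unit, bars are SE) for the 6 astrocyte genes and 42 of the 43 tested genes of 5 astrocyte lists, with red for an adjusted p below 0.05 and names for the genes given in the text. The metabolism list lies wholly below 0, while the other 4 lists hold slopes on both sides of 0.

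Markers of other cells moved along the same score, beside 19.3% of all genes called higher and 18.3% lower. Of the oligodendrocyte genes 8 of 9 tested fell and 0 rose, with MBP, of myelin, at −0.15 (SE 0.05). All 7 tested microglia genes fell, with the complement genes C1QC at −0.17 (SE 0.04) and C1QA at −0.21 (SE 0.04). Of 6 genes of endothelium and pericytes 3 fell, with RGS5 at −0.17 (SE 0.03) and CLDN5 at −0.02 (SE 0.03, not called). Among 11 neuron genes 2 rose and 5 fell, with STMN2 at 0.11 (SE 0.02) and SNAP25 at 0.03 (SE 0.03, not called). The part of these cells in the slopes of SLC1A2 and GJA1 was not tested beyond the fits below.

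Genes of the 2 regions moved with the score, to which they are related by its construction. Of 9 cerebellum genes 8 rose, with NEUROD1 at 0.42 (SE 0.03), while PVALB was at 0.03 (SE 0.04, not called). All 3 tested forebrain genes fell, with the transcription factor gene LHX2 at −0.65 (SE 0.04). Skeletal muscle genes were nearly level, with ACTA1 at −0.02 (SE 0.06) and TNNC2 at −0.01 (SE 0.04), and 1 of 9 was called. Of 8 liver genes 1 rose and 1 fell, with ALB at −0.01 (SE 0.15) and APOA1 at −0.10 (SE 0.02).

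The members were next set against the level of other cell types, each taken as the mean log2 CPM of its list. The oligodendrocyte score ran from 5.52 to 7.44. GJA1 (0.58 per unit, SE 0.13, edgeR adjusted p = 0.00366), SLC1A2 (0.82, SE 0.24, adjusted p = 0.0179) and AQP4 (0.32, SE 0.09, adjusted p = 0.0190) rose along it, 3 of 6 members, where 14.6% of all genes were called, 6.84% higher and 7.76% lower. GFAP was at 0.30 (SE 0.14, adjusted p = 0.143), SLC1A3 at −0.02 (SE 0.13) and ALDH1L1 at 0.18 (SE 0.41). AQP4 did not pass in file numbers 1 to 24 alone (0.32, adjusted p = 0.119), nor did AQP4 (adjusted p = 0.0734) and SLC1A2 (adjusted p = 0.0994) with scaling by total counts alone. With the regional score added, AQP4 (0.42, adjusted p = 0.0083) and GFAP (0.49, adjusted p = 0.0238) were called higher, whereas GJA1 (0.35, adjusted p = 0.105) and SLC1A2 (0.25, adjusted p = 0.64) were not. GFAP was at 0.08 (SE 0.09) along the oligodendrocyte score without the 2 libraries highest in GFAP. Conversely, with the oligodendrocyte score added to the regional fit, SLC1A2 and GJA1 stayed called lower along the regional score.

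The neuron score spanned only 8.45 to 9.26. Along it GFAP was lower (−1.58 per unit, SE 0.35, edgeR adjusted p = 0.0151), and so was AQP4 (−1.19, SE 0.26, adjusted p = 0.0142). These were 2 of 6 members, where 1.80% of all genes were called, 0.716% higher and 1.08% lower. Both calls rested on few libraries. Without increased cholecalciferol replicate 8 GFAP was at −0.97 (adjusted p = 0.0619), without combination replicate 3 AQP4 was at −1.03 (adjusted p = 0.0521), and without both libraries neither passed (GFAP −0.67, adjusted p = 0.208, AQP4 −0.83, adjusted p = 0.122). Neither passed in file numbers 1 to 24 alone. SLC1A2, SLC1A3 and ALDH1L1 were not called. GJA1 was at −0.82 (SE 0.47, adjusted p = 0.416) and passed with the regional score added (−1.07, adjusted p = 0.0255) and with scaling by total counts alone (−1.19, adjusted p = 0.0187), under which GFAP (−0.48, adjusted p = 0.49) and AQP4 (−0.77, adjusted p = 0.0532) did not.

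The levels of muscle and liver transcripts gave no call among the astrocyte genes. Along the skeletal muscle score 0 of the 6 members was called, where 0.880% of all genes were, all higher and 0% lower. The members with the largest slopes were ALDH1L1 (−0.58, SE 0.54) and SLC1A2 (0.38, SE 0.31). Along the liver score 0 of 6 was called as well, where 0.165% of all genes were, all higher and 0% lower. At an unadjusted p below 0.05 the 6 members gave 0 in both fits, and all genes gave 753 and 292, where 699 would be expected by chance.

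The 6 genes did not vary as 1 group across the 34 libraries. Of 15 pairs 4 passed (permutation test, 100000 resamples, two-sided, Benjamini-Hochberg adjusted over the 15). GFAP and AQP4 had the highest Pearson r, 0.675 (permutation p = 2e-05, adjusted p = 0.0003). Spearman's rho was lower at 0.41 (permutation p = 0.0174, adjusted p = 0.0869), and r was 0.436 without the 2 libraries farthest from the median of GFAP, so that these libraries carried part of the relation. Within file numbers 1 to 24, which hold both of these libraries, r was 0.731.

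GJA1 was related to 3 genes. With SLC1A3 its r was 0.495 (permutation p = 0.00327, adjusted p = 0.0245) and rho 0.459 (p = 0.00646, adjusted p = 0.0484), with an r of 0.533 without 2 libraries and 0.586 within file numbers 1 to 24. With AQP4 its r was 0.453 (permutation p = 0.0074, adjusted p = 0.0288) and rho 0.559 (p = 0.00073, adjusted p = 0.0109), with an r of 0.396 without 2 libraries and 0.372 within file numbers 1 to 24 (adjusted p = 0.225). With SLC1A2 its r was 0.447 (permutation p = 0.00768, adjusted p = 0.0288) and rho 0.341 (p = 0.0478, adjusted p = 0.144), with an r of 0.503 without 2 libraries and 0.416 within file numbers 1 to 24 (adjusted p = 0.208). With scaling by total counts alone none of these 3 relations passed (permutation adjusted p = 0.127 with SLC1A3, 0.173 with AQP4 and 0.173 with SLC1A2), while that of GFAP and AQP4 did (r = 0.746, permutation adjusted p = 0.00045). The 2 glutamate transporters were not related beyond this test (r = 0.212, rho = 0.254, permutation adjusted p = 0.487). GFAP and SLC1A2 were at −0.249 (permutation adjusted p = 0.392), and 0.0534 without 2 libraries. The other 2 runs hold 5 libraries each, too few for a value of their own.

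**Figure D5:**
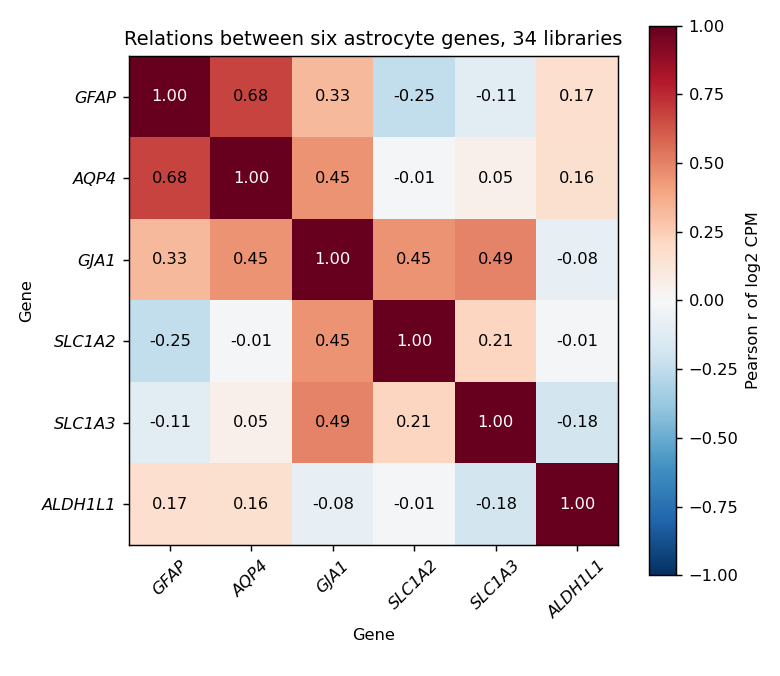
Pearson r between the log2 CPM of each pair of astrocyte genes over 34 libraries, with both axes listing the genes and the colour giving r from −1 to 1. GFAP with AQP4 is highest at 0.675, GJA1 joins AQP4, SLC1A2 and SLC1A3, and ALDH1L1 lies between −0.18 and 0.17 with the other 5.

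The genes with the most similar profile differed from member to member. These values describe 34 libraries that share their makeup and scaling. GFAP was most like TST, a mitochondrial sulfurtransferase gene (Pearson r = 0.853), LGALS1, which encodes galectin 1 (0.781), and the apelin receptor gene APLNR (0.773). Without the 2 libraries highest in GFAP these were 0.618, 0.367 and 0.683. AQP4 was most like the tetraspanin gene CD81 (0.747), the leukocyte integrin gene ITGB2 (0.743) and CST3, which encodes cystatin C (0.725). SLC1A2 was most like XKR4 (0.902), the septin gene SEPTIN11 (0.880) and APC, of the Wnt pathway (0.879), each of which also fell along the regional score.

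GJA1 was most like the ribonuclease gene RNASE4 (0.922), ALOX5AP, of leukotriene synthesis (0.900), and the metallothionein gene MT1X (0.891), all of which fell along the score too. SLC1A3 was most like C1orf122 (0.795), the small GTPase gene ARL3 (0.793) and RGS7, a regulator of G protein signalling (0.774). ALDH1L1 reached an r of only 0.589 with LIPE, the gene of hormone-sensitive lipase, 0.586 with ENTR1 and 0.575 with SWT1. Genes picked for likeness to SLC1A2 or GJA1, which fell along the score, share that fall in part by choice. Among genes similar to the other members, ARL3 (−0.07) and RGS7 (−0.07) were called lower along the score. LGALS1 (0.15) and ENTR1 (0.10) were called higher, and the rest were not called. No gene appeared among the 3 most similar of more than 1 member.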

How the data were processed

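Each library is 1 file of raw read counts per gene, deposited by the authors with no normalization. Frozen tissue, Trizol RNA and QuantSeq 3′ forward libraries were used, per the labels' protocols. FastQC, TopHat, HTSeq and DESeq2 were used, per the submitters' processing notes; versions and genome build were not given in the sources used here, so no coordinates are printed. The 5 HTSeq category lines were left out: 16.4 to 29.9% of reads lay outside genes, 11.2 to 20.7% aligned to several places and 3.63 to 4.68% were ambiguous. Symbols matched 15029 of 31907 identifiers. Diet and sex came from the labels; replicate numbers were assigned here as names and pair nothing.

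Counts were tested with edgeR 4.0.16 in R 4.3.3 (TMM, expression filter by diet, quasi-likelihood F-test, diet and sex, all 34 libraries, Benjamini-Hochberg over 13974 genes). For edgeR fits, the SE was computed here as the size of the log2 change over the square root of F. The 95% intervals were built from this SE with the t distribution. Scores used log2 CPM with a prior count of 3. Alternatives included DESeq2 1.42.0 and limma-voom 3.58.1. Scripts were tested on simulated data. All 6 members were to be described, with the 3 most similar genes of each, up to 4 genes per astrocyte list by p-value and the 2 most abundant of other lists; a few genes of this rule are not reported here. The members and lists were chosen with earlier results of these data known.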

Additional observations from a re-analysis of the deposited data

Results flagged for a closer look

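Among 24 groups of 8 to 10 libraries (6 genes in 4 diets), both ends were examined by Dixon's criterion, and 3 values stood apart from their group. Chance flags about 1 in 20 groups. GFAP was 3924 CPM in increased cholecalciferol replicate 8, where the next library of that diet had 1514 CPM. GFAP was 2139 CPM in combination replicate 3, where the next had 1191 CPM. AQP4 was 1242 CPM in increased cholecalciferol replicate 8, where the next had 846 CPM. Both libraries came from castrated males, lay in file numbers 1 to 24 and had regional scores of 7.82 and 6.07.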

How the results depend on the processing

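Of 2274 recomputed changes of the 6 genes, 0 reversed a call, 13 lost and 21 gained one. A further 132 changed sign without a call in either fit. No gene of the 6 was called between diets or sexes under any alternative. Alternatives that leave out both libraries highest in GFAP, or either one along the cell type scores, were chosen after seeing the data. With a term for file numbers, 1 gene was called for the combination against increased cholecalciferol (main count 0) and 18 for sex (main count 11). In file numbers 1 to 24 only, 2 genes were called for the combination against increased cholecalciferol and 8 for 25(OH)D against the combination (main count 0), 1021 along the oligodendrocyte score (main count 2040), 11 along the neuron score with 0 of the 6 (main counts 251 and 2), 56 along the skeletal muscle score (main count 123), and 2 related pairs of the 6 (main count 4). Without file numbers 30 to 34 the first 2 counts were 1 and 2. With the regional score added, 424 genes were called along the oligodendrocyte score and 774 along the neuron score. With total counts alone these were 508 (1 of the 6, main count 3) and 2616 (1 of the 6), and 1 pair, GFAP and AQP4, was related. Adding the oligodendrocyte score gave 4 of the 6 along the regional score (main count 2). Along the neuron score 0 of the 6 remained without both libraries highest in GFAP, and 1 without increased cholecalciferol replicate 8 or without combination replicate 3. The cause of these changes was not tested. Genes called along the regional score ran from 4729 to 5447 with each library left out. Scaling by total counts moved the median of all genes to −0.12 for 25(OH)D against the combination, −0.11 for 25(OH)D against increased cholecalciferol and 0.36 along the neuron score. No paired analysis was possible because the labels give no replicate numbers and those used here only name the libraries. Depth limits ALDH1L1, with 0 to 40 reads.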

Other observations

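The 2 libraries highest in GFAP differed in other lists. Among 34 libraries, increased cholecalciferol replicate 8 ranked 1 in the oligodendrocyte score, 2 in the reactive astrocyte score and 32 in the neuron score, and 26 in astrocyte metabolism. Its ranks in ion and water handling, regulators and secreted proteins were 19, 4 and 17. Combination replicate 3 ranked 1 in the reactive astrocyte score, 4 in the oligodendrocyte score and 34 in the neuron score. It ranked 1 in endothelium and pericytes, 1 in Schwann cells and 4 in microglia. In the other astrocyte lists it ranked 22 in metabolism, 32 in ion and water handling, 11 in regulators and 6 in secreted proteins. Their SLC1A2 levels were 43.2 and 84.2 CPM and their SLC1A3 levels 173 and 154 CPM, within the range of the other libraries. These ranks were read after the values of GFAP were seen.

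Some markers were near 0 while others of the same cell type were abundant. Beside ALDH1L1 and ALDOC, the myelin gene CNP had a mean of 0.249 CPM where MBP had 3395 CPM.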
